A study of Mus musculus with 6 samples.

Results

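Sugar absorption and fructose metabolism were examined through 8 genes, selected by symbol for their known roles, with earlier results of these data in view: *Slc5a1*, *Slc2a2*, *Slc2a5*, *Khk*, *Tkfc*, *G6pc*, *Fbp1*, and *Pck1*. All 8 were among the 21397 genes of the expression table, and 7 of them were among the 10551 genes with a mean of at least 1 FPKM, the level required for testing. FPKM is the number of sequenced fragments of a gene scaled to the length of its transcript and to the total fragments of the library. RNA was sequenced from small intestinal organoids, which are epithelial structures grown in culture from intestinal crypts, and all organoids came from Fpr2f/f mice. These mice carry *Fpr2* alleles flanked by loxP sites, and no Cre recombinase was given for these samples. The 3 MMK-1 libraries came from organoids treated for 5 days with MMK-1, a peptide agonist of formyl peptide receptor 2, and the 3 Control libraries from organoids given 0.1% DMSO. The concentration of MMK-1 is 1 μM in the protocol and 1 mM in the treatment label, and the former was taken as the dose. The crypts came from the ileum, and each sample held organoids from 3 mice. The mice were 8 to 12 weeks old. No label states that the libraries of a group came from separate cultures, so the p-values describe only the spread between these libraries.

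Dietary glucose and galactose enter the enterocyte across the brush border through SGLT1, the sodium-coupled transporter encoded by *Slc5a1*, while fructose enters through GLUT5, encoded by *Slc2a5*. GLUT2, encoded by *Slc2a2*, carries all of these sugars across the basolateral membrane into the blood. Inside the cell, ketohexokinase (*Khk*) phosphorylates fructose, the product is split, and triokinase (*Tkfc*) phosphorylates the released glyceraldehyde. The small intestine can turn part of this carbon into glucose through fructose-1,6-bisphosphatase (*Fbp1*) and glucose-6-phosphatase, whose catalytic subunit is encoded by *G6pc*. Phosphoenolpyruvate carboxykinase (*Pck1*) feeds the same route from oxaloacetate, upstream of where fructose carbon enters.

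The 8 genes did not move in a single direction. In the MMK-1 libraries, transcripts of the glucose transporters *Slc5a1* and *Slc2a2* and of *Khk* and *Tkfc*, kinases of fructose breakdown, were lower, by 1.35-fold to 1.94-fold, whereas *Slc2a5* was 1.18-fold and *Fbp1* 1.51-fold higher. *G6pc* overlapped between the groups, and *Pck1*, which was scarce in all libraries, had a mean FPKM 5.32-fold lower. By the limma test (Benjamini-Hochberg adjusted p of at most 0.05 over all genes tested), 6 of the 7 tested genes differed. This count stands against a background of 73.2% of all tested genes, so a call by itself does not set these genes apart. The 4 lower calls compare with 24.7% of tested genes called lower, and the 2 higher calls with 48.5% called higher. This balance depended on scaling. With upper-quartile scaling 5 members were lower and 1 was higher, beside 37% of all tested genes lower and 34.8% higher. With median-of-ratios scaling the shares of all genes were 37.1% lower and 34.9% higher (5 and 2 members), and with GC correction 37.3% and 35.7% (4 and 2 members). At a fold change of at least 2 with an unadjusted p of at most 0.05, which held for 7.04% of tested genes, none of the 7 was called by limma on log2(FPKM + 1), since none of the 6 reached the fold change on this scale. After either rescaling of the libraries or a correction for GC content, *Slc2a2* passed the fold change threshold, and with voom on recovered fragments *Pck1* did. For 6 of the 7 tested genes the 3 Control values did not overlap the 3 MMK-1 values, as was the case for 76.8% of all tested genes.

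Several features of the libraries bear on every value below. The libraries held 35512739 to 37537463 fragments, as recovered from the FPKM steps. The first principal component took 92.4% of the variance and separated the groups, and the second, with 4.48%, separated MMK-1 replicate 3 from the other MMK-1 libraries. This replicate had the highest value of its group for every member but *Slc2a2*, for which it had the lowest. Without it, the same 6 genes were called, each in the same direction. The median log2 fold change of all tested genes was 0.13, and scaling by the upper quartile brought it to about 0, lowering the log2 fold change of each of the 7 members by 0.16. Epithelial genes were well expressed, and the 8 epithelial reference genes, such as *Cdh1* and *Krt18*, had a geometric mean of 293 to 318 FPKM in all libraries. Single members of this reference moved, and *Krt19* had the largest change, from 1216 to 706 FPKM (log2 fold change −0.78), while *Krt8* was lower (−0.30) and *Elf3* (0.56) and *Krt18* (0.44) were higher. The cell type markers moved with treatment. Of 24 tested enterocyte markers, 23 were lower and 1, *Fabp1*, was higher (not under upper-quartile scaling, where no enterocyte marker was called higher). Their summed FPKM fell from between 1.22e+04 and 1.23e+04 to between 6.29e+03 and 6.75e+03, and none was at 0. All 9 tested stem cell markers and all 7 tested Paneth cell markers were higher. In bulk RNA, fewer enterocytes and less RNA per enterocyte cannot be told apart, and the part of cell composition in the results below was not tested beyond the ratios to markers given later.

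**Figure D1:**
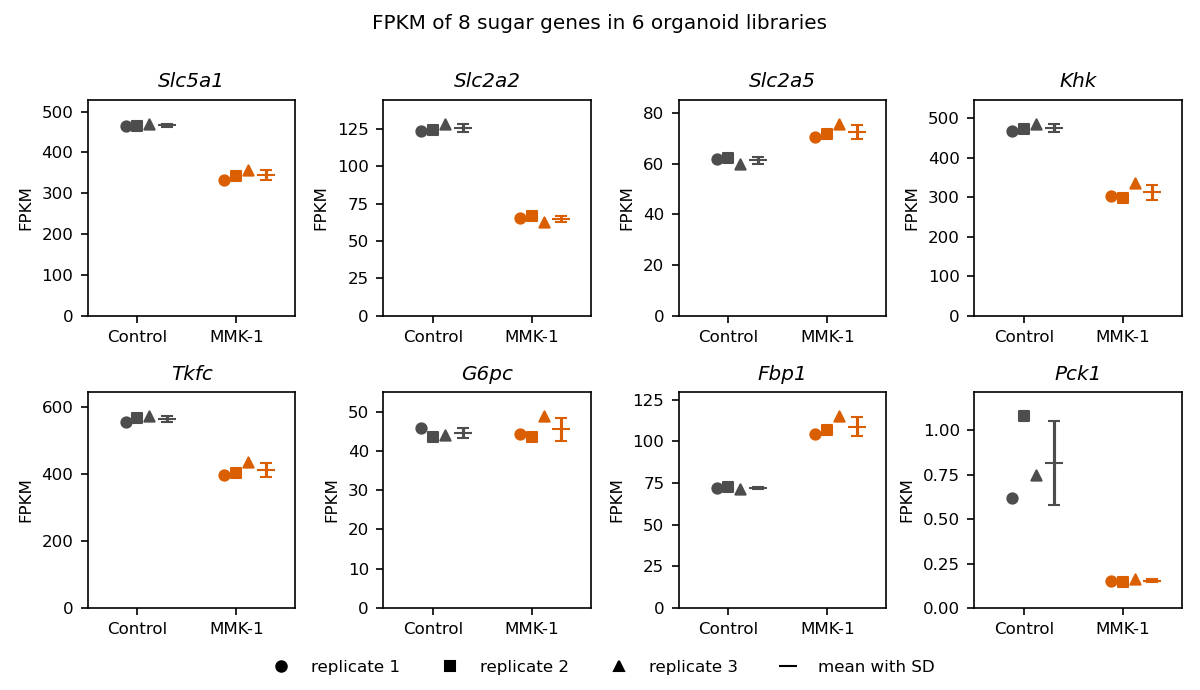
FPKM of the 8 sugar genes (vertical axes, linear and starting at 0, with a scale of their own for each gene) in the 3 Control and 3 MMK-1 libraries. Symbols mark replicates and bars the mean with SD. The groups are apart for 7 genes and overlap for *G6pc*, and *Pck1* stays near or below 1 FPKM throughout.

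*Slc5a1* (NCBI gene 20537, chr5:33104219-33162699 on the plus strand of GRCm38) was the most abundant of the 3 sugar transporters among the members. Its FPKM was 463.8, 465.3, and 470.4 in Control 1 to 3 and 333.7, 341.4, and 358.1 in MMK-1 1 to 3, with means of 466.5 ± 3.48 and 344.4 ± 12.5 (SD, n = 3 each). All MMK-1 values lay below all Control values. The log2 fold change was −0.44 (SE 0.0393, 95% CI −0.53 to −0.35, limma adjusted p = 1.35e-05), and the lowest library held 46611 fragments of this gene. *Slc2a2* (NCBI gene 20526, chr3:28697903-28728361, plus strand) had the largest change of the 7 tested members. It measured 123.8, 124.6, and 128.6 FPKM in Control and 65.65, 66.5, and 62.59 FPKM in MMK-1 libraries, with means of 125.7 ± 2.54 and 64.9 ± 2.06. Every MMK-1 library was thus far below the lowest Control library. The log2 fold change was −0.94 (SE 0.0402, 95% CI −1.03 to −0.85, limma adjusted p = 1.67e-07), and 3.98% of tested genes had a change at or below it. With upper-quartile scaling it was −1.10 and with GC correction −1.22.

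The fructose transporter *Slc2a5* (NCBI gene 56485, chr4:150119344-150144168, plus strand) took the opposite direction. FPKM was 61.87, 62.49, and 59.99 in Control and 70.52, 71.85, and 75.89 in MMK-1 libraries, and the means were 61.4 ± 1.30 and 72.7 ± 2.80. The groups did not overlap, but the shift was small. The log2 fold change of 0.24 (SE 0.0424, 95% CI 0.14 to 0.34, limma adjusted p = 8.74e-04) lay 0.11 above the median of all tested genes. After upper-quartile scaling it was 0.08, with a limma adjusted p of 0.0555, and the call was lost.

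Both kinases of fructose breakdown were lower. *Khk* (NCBI gene 16548, chr5:30921436-30931248, plus strand) was at 467.6, 473.2, and 485.9 FPKM in Control and 303.7, 297.4, and 334.6 FPKM in MMK-1 libraries, or 475.6 ± 9.39 against 311.9 ± 19.9. Its log2 fold change was −0.61 (SE 0.0501, 95% CI −0.72 to −0.50, limma adjusted p = 7.93e-06). *Tkfc* (NCBI gene 225913, chr19:10592197-10605482, minus strand) was at 556.6, 566.3, and 573.4 FPKM in Control and 398.7, 403.9, and 436 FPKM in MMK-1 libraries, or 565.5 ± 8.45 against 412.8 ± 20.2. Its log2 fold change was −0.45 (SE 0.0440, 95% CI −0.55 to −0.35, limma adjusted p = 2.19e-05). For both genes the highest MMK-1 value remained below the lowest Control value.

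Of the 3 gluconeogenic enzymes, only *Fbp1* was called higher. *Fbp1* (NCBI gene 14121, chr13:62864753-62888298, minus strand) was at 71.87, 72.69, and 71.56 FPKM in Control and 104.2, 107, and 115.2 FPKM in MMK-1 libraries. Its means were 72.0 ± 0.584 and 108.8 ± 5.72, and every MMK-1 library exceeded every Control library. The log2 fold change was 0.59 (SE 0.0453, 95% CI 0.48 to 0.69, limma adjusted p = 5.4e-06), and 0.43 with upper-quartile scaling. *G6pc* (NCBI gene 14377, chr11:101367716-101377903, plus strand) was at 45.94, 43.56, and 44.0 FPKM in Control and 44.21, 43.42, and 48.84 FPKM in MMK-1 libraries, and the ranges overlapped. Its log2 fold change was 0.03 (SE 0.0524, 95% CI −0.09 to 0.15, limma adjusted p = 0.628). Relative to a library's upper quartile, however, *G6pc* was lower by limma (−0.13, adjusted p = 0.0334).

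*Pck1* (NCBI gene 18534, chr2:173153073-173159274, plus strand) was near the limit of detection and was not part of the limma test. FPKM was 0.618, 1.08, and 0.751 in Control and 0.149, 0.148, and 0.163 in MMK-1 libraries. These values stood for 61, 107, and 74 fragments in Control and 14, 14, and 16 fragments in MMK-1 libraries. The groups did not overlap, and the log2 ratio of the means was −2.41, with an exact two-sided permutation p of 0.1, the smallest that 3 against 3 libraries allow. When every gene above 0 was fitted, the log2 fold change on log2(FPKM + 1) was −0.65 (SE 0.0918, limma adjusted p = 0.00238), a scale that understates changes of genes this low. With voom on fragments it was −2.33 (SE 0.346, limma adjusted p = 1.81e-04). *Pck2*, which encodes the mitochondrial isozyme, was more abundant and moved the other way, at 20.08, 20.29, and 20.57 FPKM in Control and 35.05, 35.74, and 39.76 FPKM in MMK-1 libraries (log2 fold change 0.83, SE 0.0529, limma adjusted p = 1.76e-06).

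**Figure D2:**
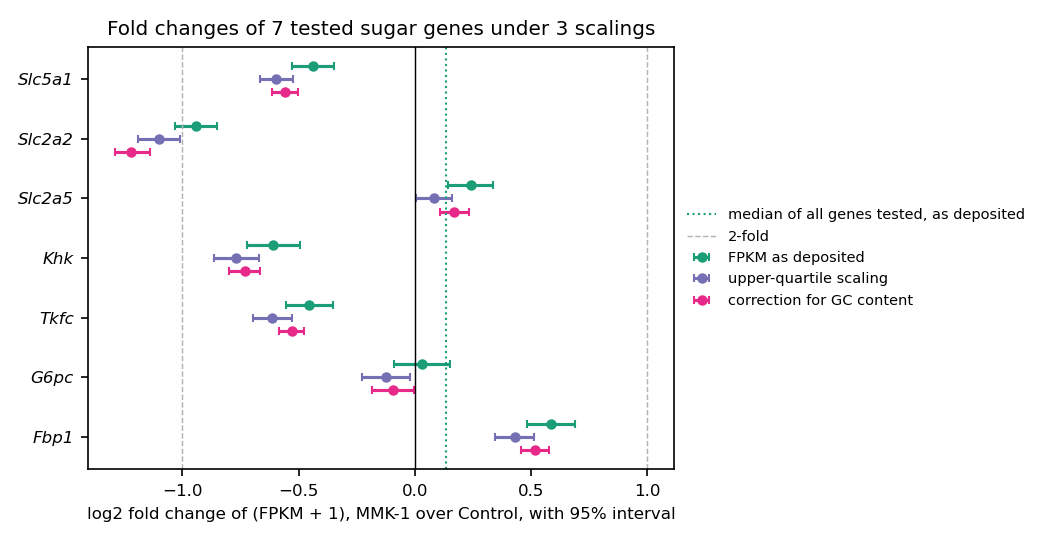
Log2 fold change (MMK-1 over Control, horizontal axis) of the 7 tested sugar genes with 95% confidence intervals, under FPKM as deposited, upper-quartile scaling, and GC correction. *Pck1* is not shown because it fell below the level tested. *Slc2a2* lies lowest and *Fbp1* highest under each, while *G6pc* lies slightly above 0 as deposited and below 0 under the other settings.

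Levels per transcript length also gave the order of the members. In Control libraries the order was *Tkfc*, *Khk*, *Slc5a1*, *Slc2a2*, *Fbp1*, *Slc2a5*, *G6pc*, and *Pck1* by mean FPKM, and *Khk* and *Slc5a1* overlapped across libraries. In MMK-1 libraries it was *Tkfc*, *Slc5a1*, *Khk*, *Fbp1*, *Slc2a5*, *Slc2a2*, *G6pc*, and *Pck1*, and again *Slc5a1* and *Khk* were the neighbours that overlapped. *Slc2a2* thus went from above *Fbp1* and *Slc2a5* to below both by deposited FPKM. Its place among the members depends on the length used, since its FPKM implies a length of 2571 bases while its GENCODE exons cover 5755 bases, and for *Slc2a5* the lengths are 3096 and 3402 bases. With the longer lengths the Control levels of *Slc2a2* and *Slc2a5* would lie close together, and the fold changes of each gene would be nearly the same. Among all genes its rank by mean FPKM went from 514 to 983, while that of *Slc5a1* went from 153 to 173, of *Khk* from 151 to 189, and of *Tkfc* from 134 to 146.

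Ratios within a library do not depend on how libraries are scaled. The amount of *Slc2a5* relative to *Slc2a2* was 0.5, 0.502, and 0.467 in Control and 1.07, 1.08, and 1.21 in MMK-1 libraries. *Slc5a1* relative to *Slc2a2* went from 3.75, 3.73, and 3.66 to 5.08, 5.13, and 5.72. *Slc2a5* relative to *Slc5a1* went from 0.133, 0.134, and 0.128 to 0.211, 0.21, and 0.212. The ratio of *Tkfc* to *Khk* changed least of the 7 member pairs compared, from 1.19, 1.2, and 1.18 to 1.31, 1.36, and 1.3. *Khk* relative to *Fbp1* went from 6.51, 6.51, and 6.79 to 2.91, 2.78, and 2.9, and *G6pc* relative to *Fbp1* from 0.639, 0.599, and 0.615 to 0.424, 0.406, and 0.424. None of these ratios overlapped between the groups. In all, 23 ratios were compared, including each member against 2 marker sets, and 22 did not overlap, each with an exact two-sided permutation p of 0.1 and 0.105 after Benjamini-Hochberg adjustment over the 23. This design cannot pass 0.05 for such a value. Against the enterocyte markers, 97.1% of all tested genes were higher and 1.64% lower without overlap. Against the epithelial reference these shares were 48.2% and 28.9%. The count of 22 therefore does not by itself set these genes apart, and no such share is given for the member pairs.

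The same genes were then set against the enterocyte markers of each library. The geometric mean of 24 markers was 261, 257, and 258 FPKM in Control and 86.6, 87.2, and 90.8 FPKM in MMK-1 libraries, 2.94-fold lower. Single markers ranged in log2 fold change from −3.44 (*Slc15a1*) to 0.17 (*Fabp1*), with a median of −1.4. The 4 members that were lower lay within this range but all above its median, near the less lowered markers *Sis* (−0.85), *Apob* (−0.62), and *Ezr* (−0.47). Relative to this mean, 7 of the 8 members were higher in every MMK-1 library than in every Control library, as were 97.1% of all tested genes, so the count says little about the members themselves. The log2 difference of this ratio was 1.12 for *Slc5a1*, 0.60 for *Slc2a2*, 0.94 for *Khk*, and 1.10 for *Tkfc*, the 4 genes that were lower in FPKM. It was 1.80 for *Slc2a5*, 1.58 for *G6pc*, and 2.15 for *Fbp1*. For *Pck1* it was −0.82. Against the 8 epithelial reference genes, whose geometric mean was 296, 300, and 298 FPKM in Control and 297, 293, and 318 FPKM in MMK-1 libraries, the log2 differences kept the signs seen in FPKM: −0.46 for *Slc5a1*, −0.98 for *Slc2a2*, 0.22 for *Slc2a5*, −0.63 for *Khk*, −0.48 for *Tkfc*, 0.57 for *Fbp1*, and −2.40 for *Pck1*. *G6pc* relative to this reference overlapped between the groups, with a log2 difference of 0.0075 (exact two-sided permutation p = 0.8). Of all tested genes, 48.2% were higher and 28.9% lower without overlap against this reference, so most genes separated here as well.

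**Figure D3:**
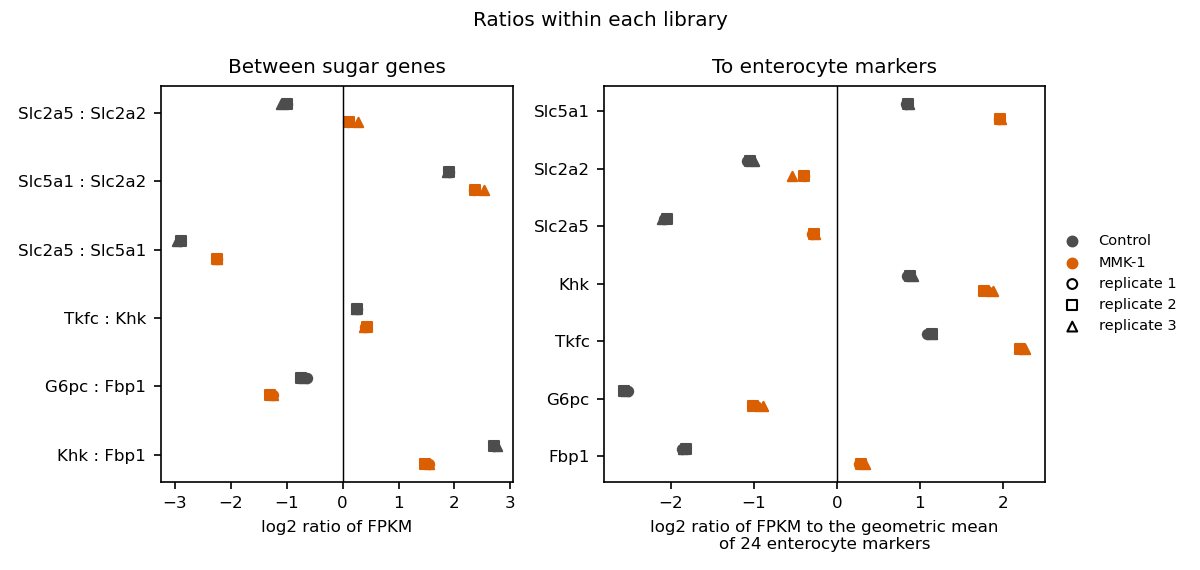
Within-library log2 ratios between sugar genes and of sugar genes to the geometric mean of the enterocyte markers, in the 3 Control and 3 MMK-1 libraries. *Pck1* is left out of the marker panel because its ratio lies far below the others. *Slc2a5* to *Slc2a2* goes from about −1 to above 0, and the ratios of the 7 genes to enterocyte markers are higher in MMK-1 libraries, as for 97.1% of all tested genes.

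Promoter windows of 300 bases, from 250 before to 50 after the transcription start that RefSeq gives on GRCm38.p6, were available for all 8 members. The 3 shown are *Slc5a1* and *Khk*, which were lower, and *G6pc*, which overlapped between the groups. Together they hold every match among the members to the E-box and the TATA box, which are in capitals. E-boxes are bound by many factors, those that respond to sugar among them. The windows are chr5:33103969-33104268 for *Slc5a1*, chr5:30921309-30921608 for *Khk*, and chr11:101367466-101367765 for *G6pc*, all on the plus strand and 5′ to 3′. For *Khk* this start lies inside the annotated span of the gene.
Slc5a1: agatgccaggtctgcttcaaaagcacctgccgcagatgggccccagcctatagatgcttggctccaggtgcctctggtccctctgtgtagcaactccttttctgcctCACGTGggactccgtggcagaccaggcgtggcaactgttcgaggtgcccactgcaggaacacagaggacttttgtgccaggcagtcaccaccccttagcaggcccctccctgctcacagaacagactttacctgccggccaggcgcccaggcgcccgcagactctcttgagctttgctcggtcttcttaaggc
Khk: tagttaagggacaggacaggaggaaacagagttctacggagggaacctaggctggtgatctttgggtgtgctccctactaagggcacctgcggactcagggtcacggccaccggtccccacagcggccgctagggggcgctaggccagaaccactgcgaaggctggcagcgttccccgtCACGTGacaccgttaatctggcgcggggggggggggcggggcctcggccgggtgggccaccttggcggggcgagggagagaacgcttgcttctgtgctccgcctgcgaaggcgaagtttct
G6pc: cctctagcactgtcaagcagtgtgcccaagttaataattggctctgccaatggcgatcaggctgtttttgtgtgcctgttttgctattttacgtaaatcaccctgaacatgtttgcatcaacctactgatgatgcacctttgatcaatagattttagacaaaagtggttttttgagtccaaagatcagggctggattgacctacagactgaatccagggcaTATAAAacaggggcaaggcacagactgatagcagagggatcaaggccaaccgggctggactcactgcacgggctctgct

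Both strands of each window were searched for 7 short motifs, with positions counted from the transcription start. The E-box CACGTG, present in 7.15% of all 32851 promoter windows, was in 2 of 8 members, at −143 in *Slc5a1* and −71 in *Khk*. The *Khk* E-box overlaps a match to TGACG, the first bases of the cyclic AMP response element, on the opposite strand at −74. That shorter motif (20.8% of all windows) was also in *Pck1* at −90, while the whole element TGACGTCA (1.79%) was in no member. The GATA core AGATAA (11.2%) was in *Fbp1* at −116 and *Pck1* at −169, and TATAAA (13.6%) in *G6pc* at −29. Neither CAAAGTCCA, an HNF4 direct repeat (0.475%), nor the CDX core TTTATG (11.9%) was found. A match is a description of these letters and was not tested as a binding site. Transcripts of *Mlxipl*, which encodes the carbohydrate-responsive factor ChREBP and was chosen after its values were seen, were at 124.3, 123.8, and 123.3 FPKM in Control and 111, 114.3, and 120.4 FPKM in MMK-1 libraries (log2 fold change −0.10, limma adjusted p = 0.0468). With upper-quartile scaling the change of *Mlxipl* was −0.26 (limma adjusted p = 1.65e-04) and with GC correction −0.19, but with every gene above 0 fitted the limma adjusted p was 0.0533 and the call was lost.

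The remaining sugar transporters were mostly lower. Of 17 in the table, 10 were tested, and 8 of these were at or above 1 FPKM on average in both groups. Of the 8, 7 were lower and 1 was higher, and the median log2 fold change was −1.46, beside 0.13 over all tested genes. The shares of all tested genes were 24.7% called lower and 48.5% called higher. The other two, *Slc5a3* and *Slc5a4a*, reached the tested level only through the group in which they were higher and are not counted. *Slc5a4b*, a relative of SGLT1, was at 57.23, 57.92, and 61.04 FPKM in Control and 6.812, 6.8, and 8.026 FPKM in MMK-1 libraries (log2 fold change −2.87, SE 0.0637, limma adjusted p = 5.09e-09). Its paralog *Slc5a4a* may share reads with it, and how fragments were split between them was not tested. *Slc2a7*, a hexose transporter of the GLUT family, was at 20.24, 21.35, and 20.72 FPKM in Control and 3.652, 4.058, and 3.882 FPKM in MMK-1 libraries (−2.16, limma adjusted p = 5.92e-09), and *Slc5a11*, an inositol transporter, fell from 16.5 to 4.17 FPKM (−1.76, limma adjusted p = 5.07e-08). The exception was *Slc2a1*. This gene, which encodes the widely expressed glucose transporter GLUT1, was at 19.48, 21.16, and 21.54 FPKM in Control and 41.92, 43.82, and 47.06 FPKM in MMK-1 libraries (log2 fold change 1.06, SE 0.0568, limma adjusted p = 6.17e-07). *Slc5a3*, an inositol transporter, was at 0.61 FPKM in Control and 1.68 FPKM in MMK-1 libraries. The ratio of *Slc2a2* to *Slc2a1*, computed after these values were seen, was 6.36, 5.89, and 5.97 in Control and 1.57, 1.52, and 1.33 in MMK-1 libraries.

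Among 13 tested fructose and polyol enzymes, 6 were higher, 4 were lower, and 3 were not called, with a median log2 fold change of 0.09 (−0.06 and 6 lower under upper-quartile scaling). Of all tested genes, 48.5% were called higher and 24.7% lower (34.8% and 37% under upper-quartile scaling). These counts therefore do not by themselves set the list apart. The largest gains were in hexokinases, the enzymes that phosphorylate glucose: *Hk2* went from 2.78 to 8.38 FPKM (1.31, limma adjusted p = 1.88e-07) and *Hk1* from 5.44 to 12.7 FPKM (1.09, limma adjusted p = 8.04e-07). *Gpd1l* followed with 0.57. Sorbitol dehydrogenase (*Sord*), which makes fructose from sorbitol, was lower, from 268 to 177 FPKM (−0.60, limma adjusted p = 1.63e-06). Glycerate kinase (*Glyctk*, −0.89) and the fatty aldehyde dehydrogenase *Aldh3a2* (−0.87) were lower too.

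Of 14 other tested gluconeogenic genes, 6 were higher, 7 lower, and 1 not called (4 higher and 8 lower under upper-quartile scaling), with a median log2 fold change of −0.11. The shares of all tested genes were 48.5% higher and 24.7% lower (34.8% and 37% under upper-quartile scaling). Besides *Pck2*, the largest gains were those of the aminotransferases *Got1* (0.64) and *Gpt2* (0.45). The cytosolic alanine aminotransferase *Gpt* fell from 71.6 to 20.3 FPKM (−1.77, limma adjusted p = 7.84e-09), and pyruvate carboxylase (*Pcx*) from 5.55 to 2.50 FPKM (−0.91, limma adjusted p = 3.36e-06). *Slc37a4*, which carries glucose-6-phosphate to the enzyme encoded by *G6pc*, was at 88.39, 89.07, and 95.05 FPKM in Control and 53.43, 55.24, and 57.58 FPKM in MMK-1 libraries (−0.70, SE 0.0462, limma adjusted p = 2.04e-06). *Fbp2*, the other fructose-1,6-bisphosphatase, was named after its values were seen. It was at 332.1, 320.6, and 334.9 FPKM in Control and 224.5, 219.8, and 241.7 FPKM in MMK-1 libraries (−0.53, SE 0.0457, limma adjusted p = 1.11e-05). The ratio of *Fbp1* to *Fbp2* was 0.216, 0.227, and 0.214 in Control and 0.464, 0.487, and 0.477 in MMK-1 libraries, and *Fbp2* was the more abundant in both groups.

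Genes around these pathways were counted in the same way. Each count stands beside 48.5% of all tested genes called higher and 24.7% called lower (34.8% and 37% under upper-quartile scaling). Of 9 galactose enzymes, 2 were higher (*Pgm2* among them, 0.43), 3 were lower, and 4 were not called. The lower ones were *Galm* (−0.62, from 127 to 82.4 FPKM), *Galt* (−0.51), and *Pgm1* (−0.27), and 6 were lower under upper-quartile scaling. Among 10 genes of apical trafficking and the sodium pump that were at or above 1 FPKM on average in both groups, 7 were lower and 1 higher, with a median log2 fold change of −0.32. They included the brush-border scaffolds *Nherf1* (−0.99, from 161 to 80.7 FPKM) and *Pdzk1* (−0.76), while the sodium pump subunit *Atp1b3* was higher (0.76). The kinase *Sgk1*, known to act on transporters, was at 4.56 FPKM in Control and 0.981 FPKM in MMK-1 libraries and is not counted for that reason. Among 25 tested sugar-responsive and metabolic regulators, 9 were higher and 7 lower (6 and 10 under upper-quartile scaling), with a median of 0.05. The liver-type pyruvate kinase *Pklr*, whose gene is a known target of the carbohydrate-responsive factor ChREBP, went from 325 to 578 FPKM (0.83, limma adjusted p = 3.89e-07). *Cebpb* (0.71) and *Mlxip* (0.35) were higher, and *Nr1h4* (−0.70), *Creb3l3* (−0.64), and *Mlx* (−0.39) lower. Of 10 tested lipogenic enzymes, 9 were higher, with a median of 0.47 (7 higher under upper-quartile scaling), among them *Me1* (1.09), *Acly* (1.01, from 23.7 to 48.8 FPKM), and *Acaca* (0.72), and *Pnpla3* was lower (−0.55).

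**Figure D4:**
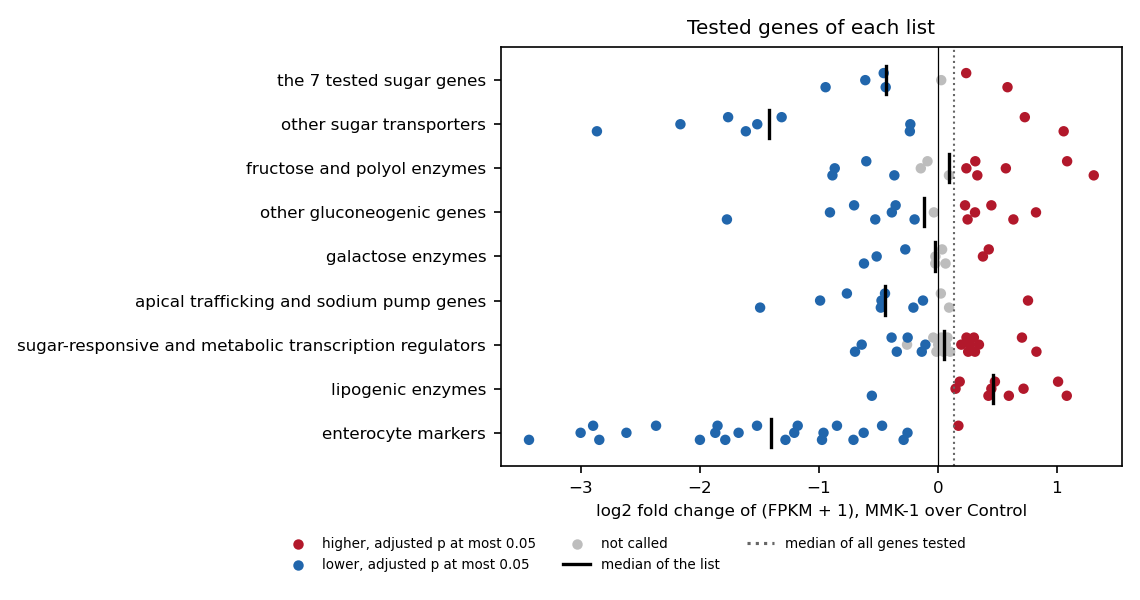
Log2 fold change (MMK-1 over Control) of every tested gene of the sugar-related lists and the enterocyte markers (1 point per gene), with the median of each list. *Slc5a3*, *Slc5a4a*, and *Sgk1*, which are left out of the counts in the text, are drawn and enter the medians drawn. Other sugar transporters and enterocyte markers lie mostly below 0, lipogenic enzymes mostly above 0, and the 7 tested sugar genes on both sides of 0.

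The genes most like each transporter were sought by Euclidean distance over the 6 libraries, in log2(FPKM + 1) minus the Control mean. For *Slc5a1* the nearest were *Cbr1* (distance 0.025), *H2-D1* (0.0308), and *Mtch2* (0.0342). For *Slc2a2* they were *Ncald* (0.0568), *Sowaha* (0.0687), and *Lap3* (0.0705), and for *Slc2a5* they were *Sun1* (0.0288), *Adam15* (0.0307), and *Ago2* (0.0343). With only 2 groups, such distances mainly record a similar fold change: it was −0.43 for *Cbr1*, −0.94 for *Ncald*, and 0.26 for *Sun1*.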

How the data were processed

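Bulk RNA-seq of 6 mouse organoid libraries (3 per group) was analysed from the FPKM values that the authors deposited, with no further normalization stated. Sequencing was paired-end with reads of 150 bases. The submitters' processing notes name HISAT2, HTSeq, R 3.2.0, DESeq2, and the mm10 build, without parameters. Gene coordinates and promoter windows are those of RefSeq on GRCm38.p6, the same build as mm10. Counting by strand was not given in the sources used here.

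The values are whole fragments times a factor per gene and library, so fragments and library totals were recovered from the FPKM steps (tolerance 0.02, all genes above 0). On listed genes lay 99.7% of fragments. Numbers of fragments cover counting error only. Log2(FPKM + 1) of 10551 genes with a mean of at least 1 FPKM was fitted with limma 3.58.1 in R 4.3.3 (trended variance, no covariate), with Benjamini-Hochberg adjustment over all of them. Fold changes are on that scale, which understates low genes. In simulated data of 10401 tested genes, 200 genes were changed, and every gene had the same dispersion. All genes changed by 1.5-fold or 3-fold were called, and 9 unchanged ones. In the real libraries 73.2% of tested genes were called, so the simulation does not measure power or false calls there. Alternatives were scaling, pseudocount, filter, voom on fragments, replicate block, leaving out each library, GC correction (GC known for 96.3% of tested genes), and a fold threshold of 1.5. Libraries were compared for duplicates, and none differed by less than sampling noise.

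The members and lists were chosen with earlier results of these data known. Named were all members, *Slc37a4*, the up to 3 largest called changes per direction of each sugar-related list, and the 3 genes nearest each transporter, and some genes that this rule names are not reported here. Cell type marker lists served as a check. Of the further lists, 6 of 8 goblet cell markers were higher and 2 lower (3 and 2 under upper-quartile scaling), 7 of 10 enteroendocrine markers were higher (5, with 1 lower), no tuft cell marker reached 1 FPKM on average, 1 immune marker above 1 FPKM in both groups was lower (all of them had a summed FPKM of 6.47 to 7.23 in Control, 2.46 to 3.66 in MMK-1 libraries), and so was the 1 tested stromal marker (5.81 to 6.26 and 3.64 to 5.24). Of the epithelial reference genes, 4 were higher and 2 lower (2 and 4 under upper-quartile scaling). Over all tested genes, 48.5% were higher and 24.7% lower (34.8% and 37% under upper-quartile scaling).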

Additional observations from a re-analysis of the deposited data

How the results depend on the processing

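For *Slc5a1*, *Slc2a2*, *Khk*, *Tkfc*, and *Fbp1*, direction and call held under all 13 alternatives fitted, with log2 fold changes of −0.60 to −0.41, −1.22 to −0.92, −0.77 to −0.58, −0.61 to −0.43, and 0.43 to 0.62. *Slc2a5* stayed higher (0.08 to 0.26), but with upper-quartile scaling its call was lost, leaving 1 sugar gene called higher. The number past the fold threshold of 2 was 1 with upper-quartile scaling, median-of-ratios scaling, voom, and GC correction, and 3 at a threshold of 1.5. *G6pc* turned to −0.126 under both scalings, to −0.0952 with GC correction, and to −0.0216 without MMK-1 replicate 3 (highest 0.0615 without MMK-1 replicate 2). Upper-quartile scaling lowered the log2 fold change of each tested member by 0.16, *G6pc* included. The cause of the other turns was not tested. *Pck1* was −0.647 with every gene above 0 fitted and −2.33 with voom, both called. Its ratio to enterocyte markers turned to 0.873 on log2(FPKM + 1), where the added 1 exceeds its own level in 5 of 6 libraries. The ratio of *G6pc* to the epithelial reference ranged from −0.0125 to 0.0353 when 1 library was left out, with −0.000226 without Control replicate 3 and −0.00908 without MMK-1 replicate 3. Over all genes, 5118 were higher and 2606 lower. This became 3673 and 3905 with upper-quartile, 3682 and 3916 with median-of-ratios scaling, and 3766 and 3937 with GC correction. Past the fold threshold were 743 genes, 1162 with a pseudocount of 0.1, 3386 with voom, and 2357 at a threshold of 1.5. Replicate numbers are shared by the groups, but same-numbered libraries did not deviate together (correlations 0.025, −0.040, and 0.028), so no pairing was assumed. With the replicate block, 7567 genes were called in place of 7724, 744 passed the fold threshold, and the count of 6 sugar genes stayed at 6. Without 1 library in turn, between 7067 and 8133 genes were called. With 14 to 107 fragments, *Pck1* was the member that depth limited most.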
